A study of Homo sapiens with 15 samples.

Results

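The 9 genes described here belong to the prostaglandin pathway and were listed by name: the phospholipase gene PLA2G4A, the cyclooxygenase genes PTGS1 and PTGS2, the prostaglandin E synthase genes PTGES, PTGES2 and PTGES3, the breakdown genes HPGD and PTGR1, and the receptor gene PTGER4. They are 9 of the 19775 genes read from the arrays. For a gene with several probe sets the one with the highest average across the 15 arrays was used, and the others served as a check. All 9 genes reached a log2 value of 5 in at least 4 of the 12 fermentation fluid arrays, the limit set here for testing a gene, which 8737 genes passed.

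Prostaglandins are made on demand from arachidonic acid, which a cytosolic phospholipase A2 frees from membrane lipids and which the cyclooxygenases turn into an unstable intermediate. Terminal synthases convert that intermediate into prostaglandin E2, the main prostaglandin of the colon, which acts through G protein-coupled receptors and is inactivated by a dehydrogenase and a reductase. In the colon PTGS1 is known as the constitutive cyclooxygenase and PTGS2 as the inducible one, which is high in many colorectal carcinomas, while the dehydrogenase HPGD is often low in them.

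The cells were Caco-2, a human colon carcinoma line, used in the non-differentiated state. All 15 cultures were held for 24 h in serum-free DMEM, and each gave 1 Affymetrix array. Medium alone, 100 mM NaCl and 5 mM butyrate each had 1 array. The other 12 cultures received 10% by volume of fluid cleared of bacteria, taken from a colon simulator after 48 h with 0%, 1% or 2% polydextrose, a poorly digested glucose polymer. The simulator has 4 vessels in series, labelled as models of the ascending (vessel 1), transverse (vessel 2) and descending colon (vessel 3) and of the sigmoid colon and rectum (vessel 4), and each vessel at each concentration gave 1 array. With 1 fluid for each vessel and concentration, the concentration cannot be told apart from a difference between simulator runs, and p-values over the 12 arrays measure only the spread between these arrays. In bulk RNA, fewer cells that express a gene and less RNA per cell cannot be told apart.

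The deposited log2 values ran from 0.173 to 14.46, and between 42.3% and 44.1% of genes were at 5 or more on each array. Of 12 colon epithelium markers, 8 were at 5 or more on all 15 arrays, among them EPCAM and KRT20, while VIL1, CDX1, CDX2 and LGALS4 reached 5 on none. The summed log2 value of those 12 markers was 102.8 in medium and 102.8 to 111.3 over all arrays. Markers of leukocytes (0 of 6 measured) and endothelium (0 of 5) did not reach 5 on any array, and of 8 fibroblast markers COL1A1 did. The 3′ minus 5′ log2 difference of the ACTB control probe sets, a measure of RNA integrity, was 0.951 in medium and 0.924 in 1% fluid of vessel 1, and 0.366 to 0.727 on the other 13 arrays. For the GAPDH control probe sets it was -0.112 in medium and 0.042 in 1% fluid of vessel 1, and -0.122 to -0.056 on the other 13 arrays.

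Against medium, PTGS1, PTGES and HPGD were higher with butyrate, with NaCl and in fermentation fluid, where PTGS1 was called at 2% only. PLA2G4A was higher with butyrate and in fluid, and PTGER4 with butyrate. PTGS2 and PTGES2 were lower with butyrate, and PTGES2 also in 2% fluid. With NaCl in place of medium as the control, PTGES and HPGD were lower, not higher, with butyrate and in 0% fluid. A single array has no replicate, so these comparisons have no test: a gene was compared where its brighter side reached log2 6 and called from a log2 difference of 1, a 2-fold change, and a side under 5 was set to 5, which makes the difference a bound. With butyrate 7 of the 9 genes were called, 5 higher and 2 lower, where 31.2% of all genes compared were called, 15.6% as higher and 15.6% as lower. With NaCl 3 of 8 genes were called, all higher, beside 16.6% of all genes (8.93% as higher). With 0% fluid, the mean of 4 vessels, 3 of 8 were called, all higher, beside 12.6% of all genes (7.81% as higher). In 2% fluid, where PTGS1 was called higher and PTGES2 lower, 1836 of 7925 genes compared were called, 930 as higher and 906 as lower. The median difference of the genes compared was 1.25 with butyrate, 0.46 with NaCl and 0.76 with 0% fluid, beside 0.0043, 0.018 and -0.0084 over all genes.

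**Figure D1:**
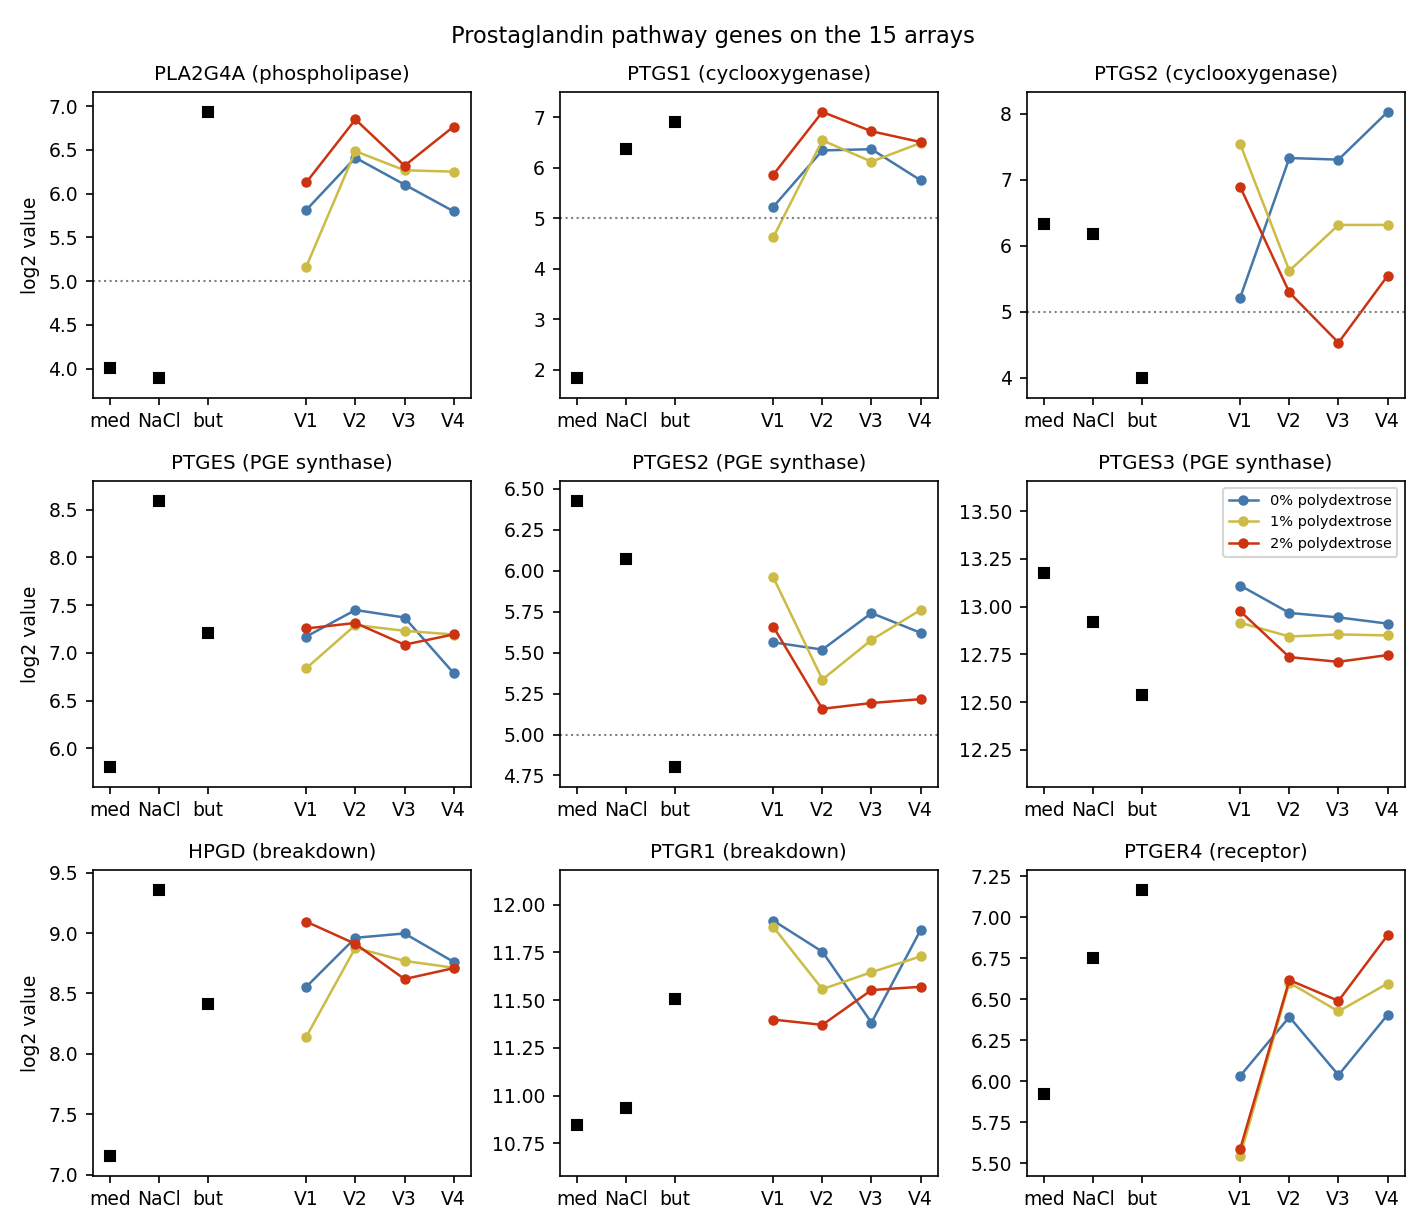
Deposited log2 values (vertical axis, 1 panel per gene, each with its own scale) of the 9 prostaglandin pathway genes on the 15 arrays. Black squares are the single arrays of medium (med), NaCl and butyrate (but); points joined by lines are vessels 1 to 4 (V1 to V4) at each polydextrose concentration, and the dotted line marks log2 5. PTGS1 lies at 1.84 in medium and at 4.62 to 7.11 on the other arrays, and the 0% line of PTGS2 crosses the 1% and 2% lines between vessels 1 and 2.

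Each fluid array was also set against the medium array for the side on which it lay, whatever its polydextrose content. PTGS1, PTGES, PLA2G4A, HPGD and PTGR1 were above medium on all 12 fluid arrays, as were 32.6% of the genes tested. PTGES2 and PTGES3 were below medium on all 12, as were 28.2% of the genes tested. PTGS2 was above medium on 5 and below it on 7, and PTGER4 was above it on 10.

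Across polydextrose concentrations, the fit over all 4 vessels called 1 of the 9 genes at 2% against 0%: PTGS1, which rose, where 20.8% of all genes passed and 9.65% passed as higher (limma, vessel as a block, Benjamini-Hochberg over 8737 genes, threshold 0.05). At 1% against 0% no gene of the 9 passed, with differences from -0.52 to 0.08 and a lowest adjusted p of 0.275 in limma, where 4.78% of all genes passed. The split of vessel 1 from vessels 2 to 4, used below, was chosen with earlier results of these data known. In vessels 2 to 4 alone, 6 of the 9 passed at 2% against 0%, where 36.7% of all genes passed. Those were PTGS1, PLA2G4A and PTGER4, which rose (16.6% of all genes did), and PTGS2, PTGES2 and PTGES3, which fell (20.1% of all genes did). No gene of the 9 had its 4 arrays of 2% fluid entirely above or below its 4 arrays of 0% fluid, which 4.89% of the genes tested had.

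**Figure D2:**
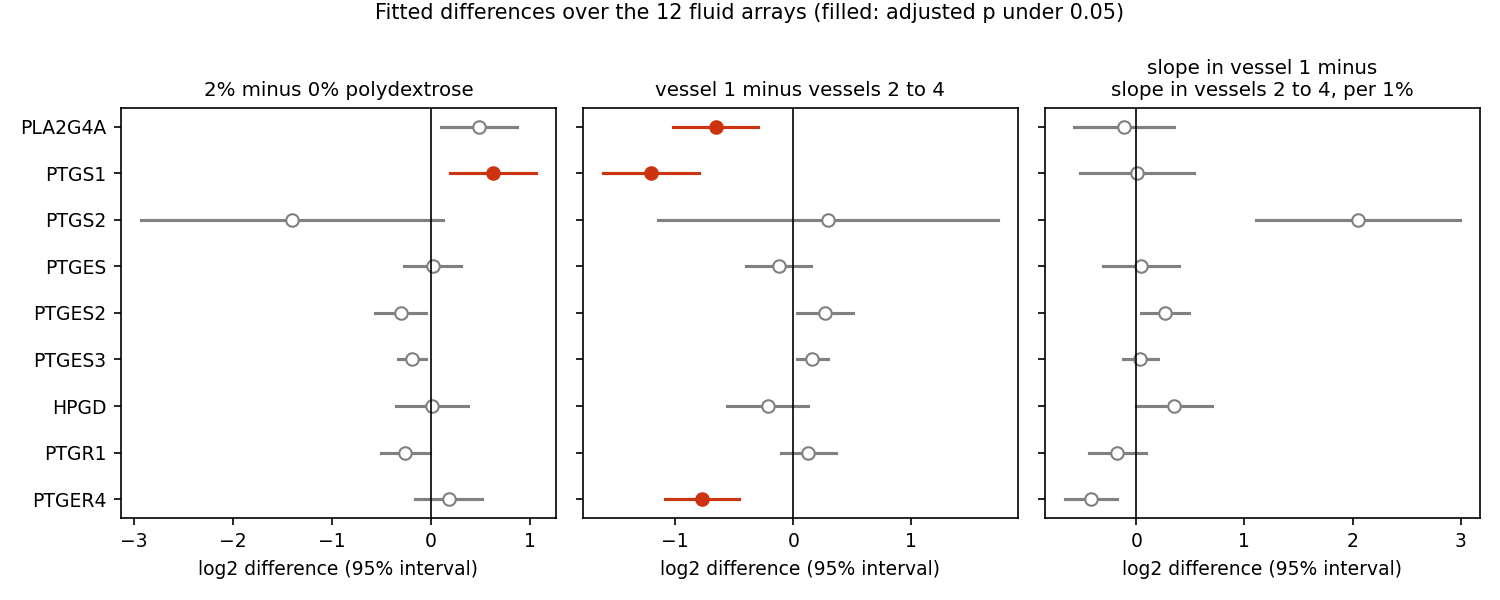
Fitted log2 differences (horizontal axes) with their 95% intervals for the 9 genes over the 12 fluid arrays: 2% minus 0% polydextrose, vessel 1 minus vessels 2 to 4, and the slope per 1% polydextrose in vessel 1 minus that in vessels 2 to 4. Filled red points passed an adjusted p of 0.05 in limma: PTGS1 for the concentration, and PTGS1, PLA2G4A and PTGER4 for vessel 1; the widest intervals in the first 2 panels are those of PTGS2.

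PLA2G4A encodes the cytosolic phospholipase A2 that releases arachidonic acid. It lies near PTGS2 on chromosome 1, on the opposite strand, with 148526 bases between the starts of both genes. Its promoter is shown because with butyrate PLA2G4A was higher and PTGS2 lower than in medium. The window holds the 250 bases before the transcript start (RefSeq, GRCh38.p14, chr1:186828699-186828948, plus strand), and capitals mark the motifs found by letter search:
PLA2G4A: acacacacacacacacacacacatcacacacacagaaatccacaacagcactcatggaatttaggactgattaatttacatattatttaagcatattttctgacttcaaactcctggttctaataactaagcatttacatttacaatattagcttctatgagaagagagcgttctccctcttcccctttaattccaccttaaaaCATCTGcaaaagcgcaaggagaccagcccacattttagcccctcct
Of the 6 motifs searched on both strands, a TATA box (TATAAA), a CRE core (CGTCA), an E-box (CANNTG), a C/EBP site (TTNNGNAAT), an NF-kB site (GGG, any 5 bases, then CC) and a GC box (GGGCGG), this window held 1 match, the E-box letters CATCTG at 46 to 41 bases before the start. Among 35116 promoter windows of the same length, 61.8% held an E-box, 10.7% a TATA box, 21.2% a CRE core, 9.85% a C/EBP site, 54.4% an NF-kB site and 42.6% a GC box. The GC content of the PLA2G4A window was 38.8%, beside a median of 58% over all windows. A match of letters is not a binding site, and these windows say nothing of binding in Caco-2 cells.

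PLA2G4A had a log2 value of 4.01 in medium and 3.90 with NaCl, both under the limit of 5. With butyrate it was 6.93, the highest of its 15 values, at least 1.93 above medium. In fluid from vessels 1 to 4 it was 5.81, 6.41, 6.10 and 5.80 at 0%, 5.17, 6.49, 6.27 and 6.25 at 1%, and 6.13, 6.85, 6.32 and 6.77 at 2%. Every fluid array was above the limit and above both medium and NaCl, and the 3 concentrations overlapped.

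The mean of PLA2G4A in 0% fluid was 6.03 ± 0.29 (SD, n = 4), at least 1.03 above medium, and in 2% fluid it was 6.52 ± 0.35 (SD, n = 4). The value at 2% was higher than at 0% in all 4 vessels, by 0.31, 0.44, 0.22 and 0.97. The fitted difference was 0.48 (SE 0.17, limma adjusted p = 0.0727) and did not pass over 4 vessels. In vessels 2 to 4 alone it was 0.54 (SE 0.14, limma adjusted p = 0.0188) and passed. It also passed without the 0% array of vessel 1 (0.62, adjusted p = 0.0204) or without the 1% array of vessel 1 (0.48, adjusted p = 0.0264), each in limma. These were the only 3 of 22 alternatives that passed, and the others had limma adjusted p-values of up to 0.284. PLA2G4A was lower in vessel 1 than in vessels 2 to 4 by 0.66 (log2 difference -0.66, SE 0.16, limma adjusted p = 0.0131). That call was lost without the 1% array of vessel 1 (-0.40, limma adjusted p = 0.078) and without the concentration factor in the fit (limma adjusted p = 0.0744).

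PTGS1 encodes the constitutive cyclooxygenase. Its log2 value was 1.84 in medium, far under the limit of 5, 6.37 with NaCl and 6.92 under butyrate. Its values in fluid of vessels 1 to 4 were 5.23, 6.35, 6.37 and 5.75 at 0%, 4.62, 6.55, 6.12 and 6.49 at 1%, and 5.86, 7.11, 6.73 and 6.51 at 2%. The medium array was thus far below the other 14, and vessel 1 had the lowest value at each concentration.

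The differences of PTGS1 from medium were at least 1.92 with butyrate, 1.37 with NaCl and 1.55 with 2% fluid. The mean in 0% fluid, 5.92 ± 0.55 (SD, n = 4), and in 1% fluid, 5.95 ± 0.90 (SD, n = 4), fell short of the brightness needed for that comparison. The probe set used has a name that marks probes which may match other sequences. A second one gave 1.86 in medium, 6.24 with NaCl and 6.75 under butyrate, and correlated with the first at r = 0.99 over 15 arrays. The other 2 probe sets of PTGS1 were dimmer: one went from 3.53 in medium to 4.87 with NaCl and 5.43 under butyrate, and the other stayed between 2.03 and 3.21 on all 15 arrays, under the limit, and gave no check. Medium was also the array with the largest ACTB 3′ minus 5′ difference (0.951) and the lowest epithelial marker sum (102.8). Its GAPDH difference (-0.112) was within the range of the other arrays. The part of RNA integrity and marker sum in its low PTGS1 value was not tested.

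From 0% to 2% polydextrose PTGS1 rose by 0.63 (SE 0.19, 95% interval 0.19 to 1.06, limma adjusted p = 0.0474), from 5.92 to 6.55 ± 0.52 (SD, n = 4), and was higher in 4 of 4 vessels, by 0.64, 0.76, 0.36 and 0.76. The call passed in 10 of 22 alternative settings, with the same direction in all 22. With every probe set fitted on its own, no probe set of PTGS1 passed. The one used had a limma adjusted p of 0.0596, and the second gave 0.56 (limma adjusted p = 0.0525). The brighter of the 2 dim probe sets gave 0.46 (limma adjusted p = 0.108). Of the 12 fits without 1 array, 3 passed (those without the 0% or 1% array of vessel 1 or the 1% array of vessel 4) and the others had limma adjusted p-values of up to 0.146. Those that did not pass left out the 0% array of vessel 2 (0.146), 3 (0.0793) or 4 (0.145), the 1% array of vessel 2 (0.068) or 3 (0.0629), or the 2% array of vessel 1 (0.106), 2 (0.124), 3 (0.0953) or 4 (0.08). Without the vessel block the adjusted p was 0.358, and with no filter on low values it was 0.0655 (limma).

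In vessel 1 the mean of PTGS1 was 5.24 ± 0.62 (SD, n = 3), beside 6.44 ± 0.38 (SD, n = 9) in vessels 2 to 4. The difference was -1.20 (SE 0.18, limma adjusted p = 0.00192) and passed, as did 34.7% of all genes, 15.4% as lower in vessel 1. It passed without each array in turn, at -1.35 to -0.92. The call was lost without the concentration factor in the fit (limma adjusted p = 0.0637). It was also lost with the brighter of the 2 dim probe sets, which gave -0.45 (limma adjusted p = 0.0659). The 1% value of vessel 1, 4.62, was under the limit of 5. The ACTB difference was 0.727, 0.924 and 0.620 in vessel 1 and 0.366 to 0.636 in vessels 2 to 4. That of GAPDH was -0.056, 0.042 and -0.112 in vessel 1 and -0.112 to -0.061 in vessels 2 to 4. Their part in the lower values of vessel 1 was not tested. Both transcript starts of PTGS1 in RefSeq are shown for comparison with PTGS2 (GRCh38.p14, plus strand, chr9:122370283-122370532 and chr9:122375052-122375301), with capitals for matches to the same 6 motifs:
PTGS1 start 1: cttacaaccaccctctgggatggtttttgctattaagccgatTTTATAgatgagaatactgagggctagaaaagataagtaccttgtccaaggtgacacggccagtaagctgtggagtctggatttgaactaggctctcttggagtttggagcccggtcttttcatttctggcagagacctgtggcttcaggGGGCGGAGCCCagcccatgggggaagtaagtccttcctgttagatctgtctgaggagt
PTGS1 start 2: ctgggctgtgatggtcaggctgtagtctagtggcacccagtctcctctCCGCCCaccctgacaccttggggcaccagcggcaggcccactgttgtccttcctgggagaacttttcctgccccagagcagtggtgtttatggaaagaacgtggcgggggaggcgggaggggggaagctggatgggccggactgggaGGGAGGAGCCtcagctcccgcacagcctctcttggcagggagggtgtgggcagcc
The first window held the TATA box letters on the minus strand at 208 to 203 bases before the start, and overlapping GC box and NF-kB letters at 58 to 48. The second held a GC box on the minus strand at 202 to 197 and NF-kB letters at 55 to 46, with a GC content of 65.2%.

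PTGS2 encodes the inducible cyclooxygenase. Its promoter is printed because PTGS2 was the gene of the 9 whose fluid arrays differed most (RefSeq, GRCh38.p14, chr1:186680424-186680673, minus strand, read towards the start), with the same 6 motifs in capitals:
PTGS2: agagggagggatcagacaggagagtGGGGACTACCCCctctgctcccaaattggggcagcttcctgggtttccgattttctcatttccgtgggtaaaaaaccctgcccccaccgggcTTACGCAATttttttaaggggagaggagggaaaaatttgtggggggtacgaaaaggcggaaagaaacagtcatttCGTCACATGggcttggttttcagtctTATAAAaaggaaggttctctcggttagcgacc
This window held a TATA box at 32 to 27 bases before the start, which the PLA2G4A window lacked, a CRE core at 58 to 54 and an E-box (CACATG) that overlaps it at 55 to 50. It also held C/EBP letters (TTACGCAAT) at 133 to 125 and overlapping NF-kB letters on both strands at 225 to 214. GC box letters were not in it, and its GC content was 50.4%.

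PTGS2 had a log2 value of 6.33 in medium, 6.18 with NaCl and 4.00 under butyrate. Butyrate was thus at least 1.33 below medium, under the limit of 5, while NaCl differed from medium by -0.15. The second probe set was under 5 on all 3 of these arrays and gave no check.

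In fluid without polydextrose PTGS2 was 5.22, 7.33, 7.30 and 8.03 in vessels 1 to 4, lowest in vessel 1. With 1% polydextrose it was 7.54, 5.62, 6.32 and 6.32, highest in vessel 1. With 2% it was 6.89, 5.29, 4.53 and 5.55, again highest in vessel 1. Vessel 1 thus went from lowest at 0% to highest at 1% and 2%. Among vessels 2 to 4 the order was the same at 0% and 2%, with vessel 4 highest and vessel 3 lowest. The value of 4.53, at 2% in vessel 3, was the lowest of the fluid arrays and under the limit of 5.

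Within vessel 1, PTGS2 was higher by 2.32 at 1% and by 1.67 at 2% than at 0%, and the value at 2% was below that at 1% by 0.65. Within vessel 2 it was lower than at 0%, with log2 differences of -1.71 at 1% and -2.035 at 2%. In vessel 3 the differences were -0.99 at 1% and -2.77 at 2%, the latter a bound of -2.30 with the low value set to 5. In vessel 4 they were -1.71 at 1% and -2.48 at 2%. So PTGS2 was lower at each higher concentration in vessels 2, 3 and 4, and in vessel 1 both polydextrose fluids were above the fluid without it.

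At 2% against 0% PTGS2 was called in each of the 4 vessels by its log2 difference of 1, in comparisons of single arrays. The share of all genes called was 1.09% in vessel 1 (0.703% as higher), 2.8% in vessel 2 (1.83% as lower), 5.65% in vessel 3 (3.58% as lower) and 3.03% in vessel 4 (1.63% as lower). At 1% against 0% it was called in vessels 1, 2 and 4, where 2.34% (1.82% as higher), 0.691% (0.339% as lower) and 1.21% (0.6% as lower) of all genes were called. It was just short of it in vessel 3, where 1.58% were. The second probe set had the same sign as the first in each vessel (r = 0.94 over 15 arrays), but it was at 5 or more on 1 array only, so its differences are those of low signal.

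**Figure D3:**
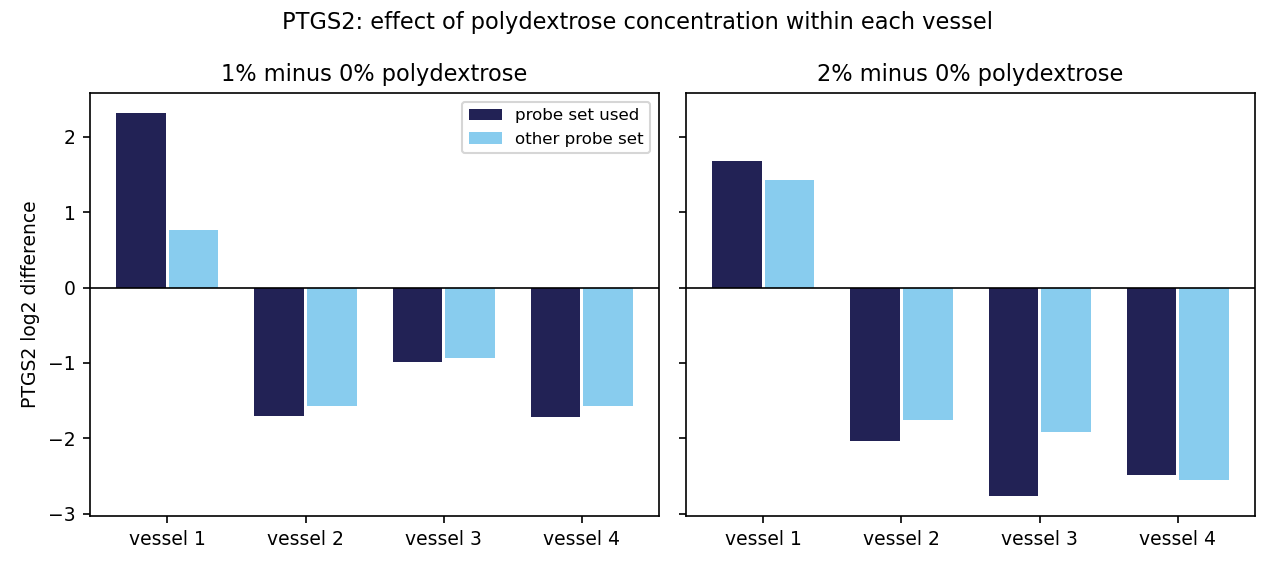
Log2 difference of PTGS2 (vertical axis) between fluid with 1% (left) or 2% (right) polydextrose and fluid with 0% from the same vessel, 1 array against 1 array for each bar. Dark bars are the probe set used and light bars its other probe set, which was under 5 on all but 1 array, and both are above 0 in vessel 1 and below 0 in vessels 2, 3 and 4, and the bars at 2% run from 1.67 in vessel 1 to -2.77 in vessel 3.

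Over all 4 vessels these opposite differences gave PTGS2 a fitted difference of -1.40 at 2% against 0% (SE 0.68, 95% interval -2.93 to 0.13, limma adjusted p = 0.168), from a mean of 6.97 ± 1.22 to 5.57 ± 0.98 (SD, n = 4 each). At 1% the mean was 6.45 ± 0.80 (SD, n = 4) and the difference -0.52 (SE 0.68, limma adjusted p = 0.671). Neither passed. In vessels 2 to 4 alone PTGS2 fell, with log2 differences of -2.43 at 2% (SE 0.24, limma adjusted p = 0.00063) and -1.47 at 1% (SE 0.24, limma adjusted p = 0.0132). At 1% in those vessels it was the 1 gene of the 9 that passed, where 13% of all genes did and 6.39% as lower.

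The call of PTGS2 turned on the 0% array of vessel 1: without it the difference was -2.39 at 2% (limma adjusted p = 0.000271) and -1.51 at 1% (limma adjusted p = 0.00646). Without any other single array neither passed. The comparison of vessel 1 with vessels 2 to 4 gave 0.29 (SE 0.64, limma adjusted p = 0.747), and without the 0% array of vessel 1 it gave 1.61 (adjusted p = 0.00102).

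The test of the difference in slope asked whether the change with concentration was alike in vessel 1 and farther along. This test was also chosen with earlier results of these data known. The PTGS2 slope per 1% polydextrose was greater in vessel 1 than in vessels 2 to 4 by 2.05 on the log2 scale (SE 0.41, 95% interval 1.11 to 2.99, unadjusted p = 0.000932 in limma). Its adjusted p of 0.0559 did not pass, and 1.17% of all genes passed. The call was made in 7 of 21 alternatives, with adjusted p-values from 0.0146 to 0.816 and 1 direction in all 21. Among them were the mean of both probe sets (1.90, limma adjusted p = 0.0261) and the fit with 1 term for vessel 1 in place of the vessel block (2.05, limma adjusted p = 0.0351). The fits without the 1% (2.05, limma adjusted p = 0.0146) or 2% array of vessel 1 (3.79, limma adjusted p = 0.0201) also passed. Leaving out the 1% array of vessel 1 could not change the estimate, as 1% is the middle concentration, so only the error of the fit changed. Without the 0% array of vessel 1 the difference in slope was 0.31 (limma adjusted p = 0.816).

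A sign of 2% minus 0% in vessel 1 opposite to that in vessels 2, 3 and 4 was found for 4 of the 9 genes, PTGS2, PTGES2, HPGD and PTGER4, and for 28.4% of all genes tested. With a log2 difference of at least 1 in each of the 4 vessels it was found for 6 of 8737 genes, 0.0687%. Besides PTGS2 these were the chemokine genes CXCL2 and CXCL3, the cytidine deaminase gene APOBEC3G, CADPS and KRTAP3-1. CXCL3 had 1.53, -2.06, -2.17 and -2.54 in vessels 1 to 4, and CXCL2 had 1.30, -1.38, -1.25 and -1.81. These 6 genes were picked by the pattern itself, so their values are a description.

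PTGES encodes the inducible, membrane-bound prostaglandin E synthase that works with PTGS2. It was 5.81 in medium, 8.59 with NaCl and 7.21 under butyrate, thus 2.78 and 1.40 above medium. The fluids of vessels 1 to 4 gave 7.17, 7.45, 7.37 and 6.79 at 0%, 6.84, 7.29, 7.23 and 7.19 at 1%, and 7.255, 7.31, 7.09 and 7.19 at 2%. All 12 fluid arrays lay between medium and NaCl, and the concentrations overlapped.

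The PTGES mean was 7.19 ± 0.29 in 0% fluid, 7.14 ± 0.20 in 1% and 7.21 ± 0.10 in 2% (SD, n = 4 each). The 0% mean was 1.39 above medium and, with NaCl as the control, 1.40 below it (log2 difference -1.40). Butyrate was likewise -1.38 from NaCl, so for PTGES the direction of both differences depended on the control array. At 2% against 0% the fitted difference was 0.02 (SE 0.13, 95% interval -0.27 to 0.31, limma adjusted p = 0.939), and vessel 1 differed from vessels 2 to 4 by -0.12 (limma adjusted p = 0.453). Its second probe set gave 2.74 for NaCl and 1.27 for butyrate against medium.

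PTGES2 encodes a further membrane-associated prostaglandin E synthase. Its log2 value was 6.43 in medium, 6.07 with NaCl and 4.80 under butyrate, the lowest of its 15 values and at least 1.43 below medium. Along vessels 1 to 4 the values were 5.56, 5.52, 5.74 and 5.62 at 0%, 5.96, 5.34, 5.58 and 5.76 at 1%, and 5.66, 5.16, 5.19 and 5.22 at 2%. At 2% vessels 2, 3 and 4 were below all 0% arrays and vessel 1 was not.

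The PTGES2 mean was 5.61 ± 0.10 in 0% fluid and 5.31 ± 0.24 in 2% fluid (SD, n = 4 each). The fitted difference was -0.31 (SE 0.11, limma adjusted p = 0.0836) and did not pass. In vessels 2 to 4 alone it fell, with a log2 difference of -0.44 (SE 0.09, limma adjusted p = 0.0091). It also passed without the 0% (-0.43, adjusted p = 0.00636) or the 2% array of vessel 1 (-0.38, adjusted p = 0.0487), each in limma. These were the only 3 of 21 alternatives that passed, and the others had limma adjusted p-values of up to 0.259. Vessel 1 differed from vessels 2 to 4 by 0.27 (limma adjusted p = 0.0775), and by 0.44 without its 0% array (adjusted p = 0.00518), the only 1 of 20 alternatives that passed. The mean in 2% fluid was 1.12 below medium.

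PTGES3 encodes the cytosolic prostaglandin E synthase, also known as the chaperone partner p23. It was bright throughout, at 13.18 in medium, 12.92 with NaCl and 12.54 under butyrate, and butyrate was 0.64 below medium without reaching the difference of 1. In fluid from vessels 1 to 4 it was 13.11, 12.97, 12.94 and 12.91 at 0%, 12.92, 12.84, 12.85 and 12.85 at 1%, and 12.98, 12.74, 12.71 and 12.75 at 2%. The values at 2% were below those at 0% in 4 of 4 vessels, and vessel 1 was the highest at each concentration.

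The PTGES3 difference at 2% against 0% was -0.19 (SE 0.06, limma adjusted p = 0.0573) and just missed the threshold. In vessels 2 to 4 alone it was -0.21 (SE 0.06, limma adjusted p = 0.0322) and passed, and it passed without the 1% (-0.19, adjusted p = 0.0475) or the 2% array of vessel 1 (-0.22, adjusted p = 0.0415). Vessel 1 differed by 0.16 (limma adjusted p = 0.0601). With an intensity trend and a robust prior both differences passed, with adjusted p-values of 0.00658 and 0.00638. In all, 5 of 22 alternatives passed at 2% against 0%, and 1 of 21 for vessel 1.

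HPGD encodes the dehydrogenase that inactivates prostaglandin E2. It was 7.16 in medium, 9.36 with NaCl and 8.41 under butyrate, thus 2.20 and 1.26 above medium. Its values in fluid of vessels 1 to 4 were 8.56, 8.96, 8.997 and 8.76 at 0%, 8.14, 8.88, 8.77 and 8.71 at 1%, and 9.09, 8.91, 8.62 and 8.71 at 2%. As for PTGES, medium was the lowest and NaCl the highest of the 15 arrays.

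The HPGD mean in 0% fluid was 8.82 ± 0.20 (SD, n = 4), 1.66 above medium and, with NaCl as the control, at a log2 difference of -0.54. Butyrate was at -0.94 from NaCl, so the direction for HPGD also depended on the control array. At 2% against 0% the fitted difference was 0.01 (SE 0.16, 95% interval -0.35 to 0.38, limma adjusted p = 0.959). The vessel 1 values ran from 8.14 to 9.09, and those of vessels 2 to 4 from 8.62 to 8.997. Vessel 1 differed by -0.22 (limma adjusted p = 0.297), and without its 2% array by -0.50 (adjusted p = 0.014), the only 1 of 21 alternatives that passed. All 3 other probe sets of HPGD were higher with NaCl than in medium, by 1.92 to 2.70. One of them was above medium by 0.64 with butyrate and 0.99 in 0% fluid, both short of 1. The others passed 1 in both, at 1.12 and 1.28 with butyrate and 1.41 and 1.51 in 0% fluid.

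PTGR1 encodes a reductase of the later breakdown step, which also acts on leukotriene B4. It was 10.85 in medium, 10.94 with NaCl and 11.51 under butyrate, and no difference from medium reached 1. The fluids of vessels 1 to 4 gave 11.92, 11.75, 11.38 and 11.87 at 0%, 11.88, 11.56, 11.65 and 11.73 at 1%, and 11.40, 11.37, 11.55 and 11.57 at 2%. All 12 were above medium, the 0% mean by 0.88, and the 2% value was below the 0% value in vessels 1, 2 and 4 but not in vessel 3.

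PTGR1 differed by -0.26 at 2% against 0% (SE 0.11, limma adjusted p = 0.122), which did not pass. Without the 0% array of vessel 3 it differed by -0.38 (limma adjusted p = 0.0409), the only 1 of 22 alternatives that passed. Vessel 1 differed from vessels 2 to 4 by 0.13 (limma adjusted p = 0.352). A second bright probe set of PTGR1 correlated with the one used at r = 0.87 over 15 arrays. Its values were above medium by 0.60 with butyrate, 0.33 with NaCl and 0.88 in 0% fluid, and its vessel 1 difference was -0.08. A dimmer probe set of PTGR1 correlated with the one used at r = 0.27 over 15 arrays and went from 3.67, under the limit, in medium to 6.78 with NaCl, where the one used gave 10.85 and 10.94.

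PTGER4 encodes a receptor for prostaglandin E2 that raises cyclic AMP. It was 5.92 in medium, 6.75 with NaCl and 7.17 under butyrate, its highest value, 1.25 above medium. Along vessels 1 to 4 the values were 6.03, 6.39, 6.04 and 6.41 at 0%, 5.55, 6.60, 6.43 and 6.60 at 1%, and 5.59, 6.62, 6.49 and 6.89 at 2%. Vessel 1 was lowest at each concentration, and its 3 arrays were all below the 9 arrays of vessels 2 to 4, which 5.2% of the genes tested were.

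The PTGER4 mean was 5.72 ± 0.27 (SD, n = 3) in vessel 1 and 6.50 ± 0.23 (SD, n = 9) in vessels 2 to 4. The fitted difference of -0.77 (SE 0.14, limma adjusted p = 0.00398) passed, also without each array in turn. It was lost without the concentration factor in the fit (limma adjusted p = 0.0637). Polydextrose at 2% differed from 0% by 0.18 over 4 vessels (SE 0.15, limma adjusted p = 0.419). The differences were -0.44, 0.23, 0.45 and 0.49 in vessels 1 to 4. In vessels 2 to 4 alone PTGER4 rose by 0.39 (SE 0.08, limma adjusted p = 0.0104), and without the 0% array of vessel 1 by 0.38 (adjusted p = 0.00802). These were the only 2 of 21 alternatives that passed. The slope in vessel 1 minus that in vessels 2 to 4 was -0.42 per 1% polydextrose (SE 0.11, limma adjusted p = 0.0938). This slope difference passed in 1 of 20 alternatives, without the 1% array of vessel 1 (limma adjusted p = 0.0412). Without the 0% array of vessel 1 it was -0.08 (limma adjusted p = 0.869). The second probe set of PTGER4 was at 2.38 or less on all arrays and gave no check.

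Vessel 1 thus differed in 3 of the 9 genes, PTGS1, PLA2G4A and PTGER4, all lower there, beside 34.7% of all genes that passed and 15.4% that passed as lower. With a straight line over the 4 vessels in place of that comparison none of the 3 passed, at limma adjusted p-values of 0.182 for PTGS1, 0.332 for PLA2G4A and 0.0721 for PTGER4.

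Other genes of the pathway were taken from 6 lists of 74 genes, of which 65 were measured and 23 bright enough to be tested. Beside the counts for 2% against 0% that follow, 20.8% of all genes passed, 9.65% as higher and 11.2% as lower. Among the phospholipases and annexin, 1 of 5 tested rose at 2% against 0%: PLA2G15, a lysosomal phospholipase, by 0.58 (SE 0.12, limma adjusted p = 0.0136). PLA2G15 was 5.46 in medium, 6.89 with NaCl and 7.65 under butyrate, as PTGS1 was higher with both. ANXA1, an inhibitor of phospholipase A2, was 11.24 in medium, 12.34 with butyrate and 12.78 ± 0.14 in 0% fluid (SD, n = 4), and PLA2G12A, a secreted phospholipase, was 8.47 in medium and 9.36 with butyrate. The secreted enzymes PLA2G2A and PLA2G5 did not reach 5 on any array.

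Of the other terminal synthases none of 4 tested passed at 2% against 0%. AKR1C3, which makes prostaglandin F2, was 5.85 in medium, 9.92 with NaCl, 9.53 with butyrate and 9.31 ± 0.13 in 0% fluid (SD, n = 4). AKR1C1 and AKR1C2, near-identical copies whose probes may share signal with AKR1C3, were 3.40 and 2.38 in medium, 8.18 and 6.64 with NaCl, and 3.73 and 2.71 with butyrate. CBR1, a carbonyl reductase acting on prostaglandin E2, was 1.34 above medium with butyrate. The synthases of prostaglandin D2, prostacyclin and thromboxane (PTGDS, HPGDS, PTGIS and TBXAS1) did not reach 5 on any array.

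Of 10 other receptor genes, PPARG and PPARD, nuclear receptors for fatty acid derivatives, were tested and neither passed. PPARG was 7.61 in medium, 8.09 with NaCl and 6.47 under butyrate. The remaining prostaglandin E2 receptor genes PTGER1, PTGER2 and PTGER3 did not reach 5 on any array, so PTGER4 was the 1 of these 4 genes at 5 or more.

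Among breakdown and transport genes 2 of 6 tested fell at 2% against 0%, and none rose. PTGR3, a prostaglandin reductase, had a log2 difference of -0.50 (SE 0.14, limma adjusted p = 0.0331), and was lower with butyrate than in medium by 1.22 (log2 difference -1.22). CYP4F3, a fatty acid hydroxylase, had -0.91 (SE 0.18, limma adjusted p = 0.0105). Its mean in 2% fluid, 5.01 ± 0.37 (SD, n = 4), lay at the limit of 5, so this fall reaches low signal. Of the lipoxygenase and leukotriene genes LTA4H, leukotriene A4 hydrolase, was the 1 tested; it was 10.43 in medium and 11.77 with butyrate, and ALOX5, ALOX12 and ALOX15 did not reach 5 on any array.

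Of 5 tested genes that supply fatty acids, ACSL1, a long-chain acyl-CoA synthetase, rose at 2% by 0.28 (SE 0.08, limma adjusted p = 0.0308). Its relative ACSL5 fell, with a log2 difference of -1.03 (SE 0.22, limma adjusted p = 0.0141), and was 11.20 in medium and 6.71 with butyrate. MGLL, the monoglyceride lipase that frees arachidonic acid from an endocannabinoid, was 6.97 in medium, 8.39 with NaCl and 5.21 under butyrate. At 1% against 0% none of the 23 genes passed.

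**Figure D4:**
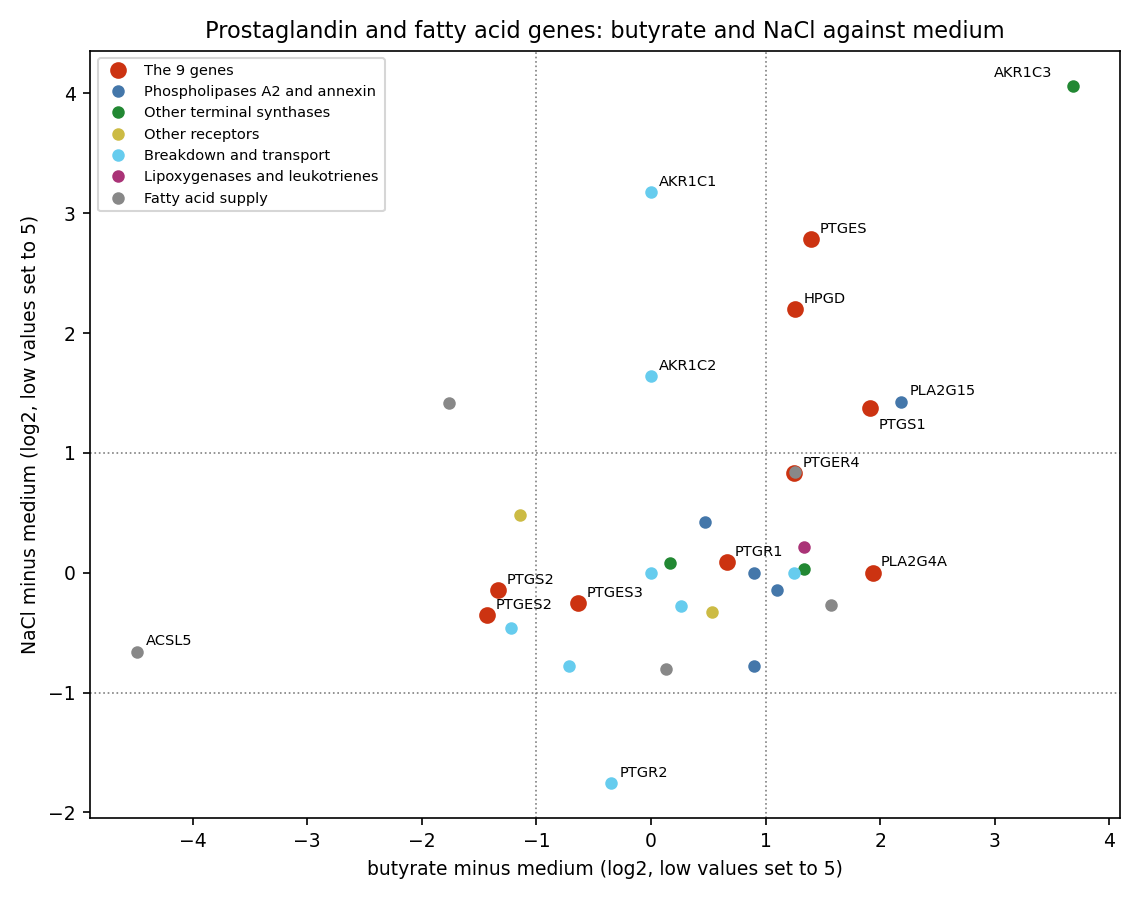
Log2 difference from medium with butyrate (horizontal axis) and with NaCl (vertical axis), 1 array against 1 array, values under 5 set to 5, for the 9 genes (large red points) and the genes of the 6 other pathway lists that reached 6 on at least 1 array; dotted lines mark a difference of 1 either way. PTGS1, PTGES and HPGD lie above 1 on both axes, as do AKR1C3 and PLA2G15, while PLA2G4A, PTGS2, PTGES2 and PTGER4 pass 1 with butyrate and not with NaCl.

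The genes whose log2 values followed PTGS2 most closely over the 12 fluid arrays were TMEM154 (Pearson r = 0.96), CXCL1 (0.95), CXCL2 (0.95), TMED10 (0.94) and LIPH (0.93). At the other end were DHX36 (-0.97), TNRC6A (-0.92) and ERVK13-1 (-0.92). CXCL1 and CXCL2 encode chemokines that draw neutrophils. They were 10.52 and 11.96 in medium, 5.56 and 6.16 with butyrate, and 7.49 and 7.62 with NaCl. PTGS2 itself was 6.33 in medium and 6.18 with NaCl. The 12 fluid arrays share vessels, concentrations and the control fluid, and the genes were picked as extremes, so r is a description over 12 arrays. For each other gene the closest was ACO1 for PTGS1 (0.98), MEAF6 for PLA2G4A (0.98), ATP5MC3 for PTGES (0.90), TNFRSF1A for PTGES2 (0.96), FAM83D for PTGES3 (0.98), SNX6 for HPGD (0.94), GLA for PTGR1 (0.95) and RRAS2 for PTGER4 (0.95). Within the 9 genes, PTGS1 and PLA2G4A had r = 0.92, PTGS2 and PTGES2 0.75, and PTGS1 and PTGS2 -0.46, over the same 12 arrays.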

How the data were processed

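Total RNA from 15 cultures of Caco-2 cells was read on 15 Affymetrix arrays. The deposited values had been background-corrected, normalized and summarized by the authors with GCRMA, per the submitters' processing notes; the deposited log2 scale was inferred from the range. Image settings and chip description are not given in the sources used here. All 15 columns were used, as deposited, with no further normalization.

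Of 54675 probe sets, 41097 had 1 gene symbol in the platform's annotation, 1801 several and 11777 none, which gave 19775 genes, 10523 with several probe sets. Fits used limma 3.58.1 in R 4.3.3 over the 12 fluid arrays and 8737 genes, with concentration and vessel as factors (6 residual degrees of freedom, 5 for the slopes; median residual SD 0.147), 2-sided p-values and Benjamini-Hochberg adjustment. The interaction used concentration as a number. The code was tested on simulated data. Promoter windows (250 bases before each start; the 50 after it left out) came from RefSeq, and all 9 genes matched.

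The 9 genes were named always, pathway genes by smallest p at 2% against 0% and then by butyrate difference (up to 4 a list), and genes outside the lists by correlation. APOBEC3G, CADPS, CXCL3, KRTAP3-1, AKR1C1, AKR1C2 and the genes named as under 5 were named after their values were seen. Members and lists were chosen with earlier results of these data known. So were the split of vessel 1 from vessels 2 to 4 and the slope test, so their p-values are not from comparisons fixed in advance. Vessel numbers pair the samples because the labels make them the same simulator compartment. With concentration means removed, 12 same-vessel pairs had a median correlation of 0.376 (0.024 to 0.781), 10 of them above 0.1. Other pairs had -0.114, but removing the means makes these go the opposite way, so their value is no separate check. Alternatives changed the filter, the probe set, the normalization, the prior, the vessel or concentration factor, the control array and the arrays used.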

Additional observations from a re-analysis of the deposited data

Results flagged for a closer look

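In 4 cases the array of vessel 1 stood apart from the other 3 vessels at the same concentration by a gap test (Dixon's ratio). This test for small groups was applied to each of the 9 genes at each concentration. By chance it marks about 5% of groups, and the share it marks over all genes was not counted. In limma 34.7% of all genes tested passed for vessel 1 against vessels 2 to 4, so a difference of vessel 1 was common on these arrays. PTGES2 in 2% fluid was 5.66 in vessel 1 and 5.16 to 5.22 in the others. PTGES3 was 12.92 in vessel 1 at 1%, beside 12.84 to 12.85, and 12.98 in vessel 1 at 2%, beside 12.71 to 12.75. PTGER4 in 1% fluid was 5.55 in vessel 1 and 6.43 to 6.60 in the others.

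For 4 genes 2% minus 0% had one sign in vessel 1 and the other in vessels 2, 3 and 4, as it had for 28.4% of all genes tested. The vessel 1 difference was 1.67 for PTGS2, 0.10 for PTGES2, 0.54 for HPGD and -0.44 for PTGER4. The limma test of the difference in slope had adjusted p-values of 0.0559 for PTGS2, 0.183 for PTGES2, 0.249 for HPGD and 0.0938 for PTGER4, and none passed.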

How the results depend on the processing

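The direction at 2% against 0% turned for PTGES with the mean of probe sets (-0.065), the other probe set (-0.15), without vessel 1 (-0.0053) and over single arrays left out (-0.12 to 0.10), and for HPGD with another probe set (-0.020), without vessel 1 (-0.16) and over single arrays left out (-0.20 to 0.14). The vessel 1 difference turned for PTGS2 as a line over vessels (-0.021) and over single arrays left out (-0.44 to 1.61), for PTGES (0.021, and -0.22 to 0.013) and for PTGR1 with another probe set (-0.076). With NaCl as control, butyrate gave -1.38 for PTGES and -0.94 for HPGD, and 0% fluid -1.40 and -0.54. The count of genes passing at 2% against 0% (1820) was 3205 without vessel 1, 863 with the 8 arrays compared and 656 to 3058 over single arrays left out. At 1% (418) it was 258 with no filter, 1136 without vessel 1, 1 with 8 arrays (1935 at an unadjusted p under 0.05) and 0 to 1185 over single arrays left out (1624 unadjusted at 0). For vessel 1 (3035) it was 4560 with every probe set, 344 as a line and 1656 to 3704 over single arrays left out. For the interaction (102) it was 154 with a stricter filter, 13 with every probe set, 345 with a trend and robust prior, 0 as a line (949 unadjusted) and 0 to 375 over single arrays left out. Without the vessel block, limma's counts were 0 at 2% (1952 unadjusted) and 0 at 1% (1125). Without the concentration factor the count for vessel 1 was 0 (3157 unadjusted). With 1 term for vessel 1 in place of the vessel block the count for the interaction was 269. For single arrays the mean of probe sets gave 1643 for butyrate (2511), 806 for NaCl (1307), 638 for 0% fluid (986; 1672 against NaCl), and 50, 132, 286 and 152 within vessels 1 to 4 (84, 216, 438 and 233; 52 in vessel 1 with a brighter side of 7). For the 15 differences given only as a range, 37 of 320 alternatives turned a sign and 0 passed. Signal near background limits PTGS1 and PLA2G4A in medium, PTGS1 at 1% in vessel 1, PLA2G4A with NaCl, PTGS2 and PTGES2 with butyrate and PTGS2 at 2% in vessel 3. It also limits CYP4F3 in 2% fluid.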
